A study of Mus musculus with 12 samples.

Results

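The line 14B3 was followed over 3 cultures on 6 of the 12 arrays of the study: 2 arrays of basal culture, 2 of aggregates after 1 day and 2 of aggregates after 5 days. The arrays were chosen by the line named in the sample titles, and no measured value entered that choice. 14B3 is a bipotential mouse embryonic liver (BMEL) cell line from day 14 embryonic liver of a CBA/J x C57Bl/6J cross, and the other 6 arrays come from 9A1, a BMEL line isolated separately. The 3 cultures of 14B3 carry no transgene, deletion or drug in the labels and differ in culture form and time: cells in basal culture, cells held as aggregates for 1 day, and cells held as aggregates for 5 days. The study calls its duplicates biological replicates. Since 14B3 is 1 line, the spread between its duplicates is not a spread between animals or lines.

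BMEL lines stand for the hepatoblast, the epithelial progenitor of the fetal liver that gives rise to hepatocytes and to bile duct cells. In adherent culture they divide, and gathering them into aggregates is a known way to drive them towards hepatocyte gene expression. Hepatocytes secrete most plasma proteins and carry out lipid, drug and amino acid metabolism, and they share with the absorptive cells of the gut a set of genes for lipoprotein assembly, sterol transport and microvilli.

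RNA was hybridised to Affymetrix whole-genome mouse arrays, and the values are log2 RMA intensities, so a difference of 1 is a 2-fold change. The 14B3 medians lay between 6.10 and 6.18, and the SD of the difference between the 2 arrays of a culture was 0.199 to 0.309, against 0.360 to 0.736 in 9A1. Replicate arrays of 14B3 correlated at 0.992 to 0.996 over probe sets, and each array was closest to its own replicate. The Actb control probes read higher at the 3' than the 5' end by 0.182 to 0.309, most on the day 1 arrays, and the part of this in the results was not tested. The 6 arrays separated by culture: the first principal component, with 70.3% of the variance, put basal arrays at 97.0 and 82.5, day 1 arrays at 5.11 and 4.95 and day 5 arrays at -95.6 and -94.0. These values of the whole profile describe the arrays and carry no test.

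Several markers of epithelial identity read high in all 3 cultures. Keratin 19 (Krt19) read 13.97 and 13.99 (basal), 13.96 and 13.97 (day 1) and 13.78 and 13.69 (day 5), and keratin 18 (Krt18), which fell in both steps, 13.96 and 13.97 in basal culture, 13.61 and 13.60 on day 1 and 12.81 and 12.77 on day 5. E-cadherin (Cdh1) read 11.45 and 11.86 (basal), 11.91 and 11.85 (day 1) and 12.08 and 11.95 (day 5). Hepatocyte nuclear factor 4 alpha (Hnf4a), a central regulator of liver and gut epithelium, stood at 10.98 and 11.48 in basal culture, 12.24 and 12.23 on day 1 and 12.43 and 12.54 on day 5. Alpha-fetoprotein (Afp), the fetal counterpart of albumin, was likewise high from the start, at 11.75 and 11.44 (basal), 11.52 and 11.36 (day 1) and 12.25 and 12.06 (day 5). Albumin, transthyretin and the epithelial surface protein Epcam, in contrast, were low in basal culture. Their values are given with the largest rises, the secreted proteins and the bile duct list. Of the 16 markers of hepatic epithelium 14 were tested. In the first step described next 6 rose and 2 fell (18.3% and 18.6% of all genes). In the second 5 rose and 4 fell (16.8% and 19.6% of all genes).

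Genes were tested with limma on the 6 arrays, with 1 mean per culture and Benjamini-Hochberg adjustment over 15400 genes; a gene is said to have risen or fallen where its adjusted p is under 0.05. From basal culture to day 1, 2822 genes rose (18.3% of those tested) and 2870 fell (18.6%). From day 1 to day 5, 2585 rose (16.8%) and 3025 fell (19.6%), and over the whole course, day 5 against basal culture, 3656 rose (23.7%) and 3989 fell (25.9%). In the first step 809 genes rose (5.25%) and 961 fell (6.24%) by at least 2-fold, and in the second 986 (6.40%) and 788 (5.12%). The steps share the day 1 arrays, so a high reading there raises the first step and lowers the second, and no overlap between steps is given. Whether a gene changed by a different amount in the second step than in the first was tested directly in the same fit, and 2198 genes (14.3%) had the higher difference in the second step and 2243 (14.6%) the lower. Without day 1 replicate 2 the 2198 became 1329. A fit that takes its spread from all 12 arrays called fewer: 538 higher and 817 lower in the first step and 589 and 492 in the second, and of the named genes called here it kept 43 of 112 in the first step, 55 of 125 in the second and 4 of 10 named for the difference between steps. Of the lead genes given next, Cdc6, Nop56, Psat1, Cyp2c55, Aldh1a1 and Maf were among those kept in the first step, and Ttr, Alb, Tnnt2 and Epcam were not. In the second step it kept Ccnb2, Npc1l1, Clca4b, Hnf4g, Fos, Cnn3 and Gsn and did not keep Alb, Apoa4, Apoc3, Lypd8, Epcam and H2-D1. Of the 15400 genes 152 reached the floor for testing, a log2 level of 5 on 2 arrays, through 1 culture alone (93 through day 5); these had to be higher there, so no fold is given for them. Lists that hold several are also counted without them.

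**Figure D1:**
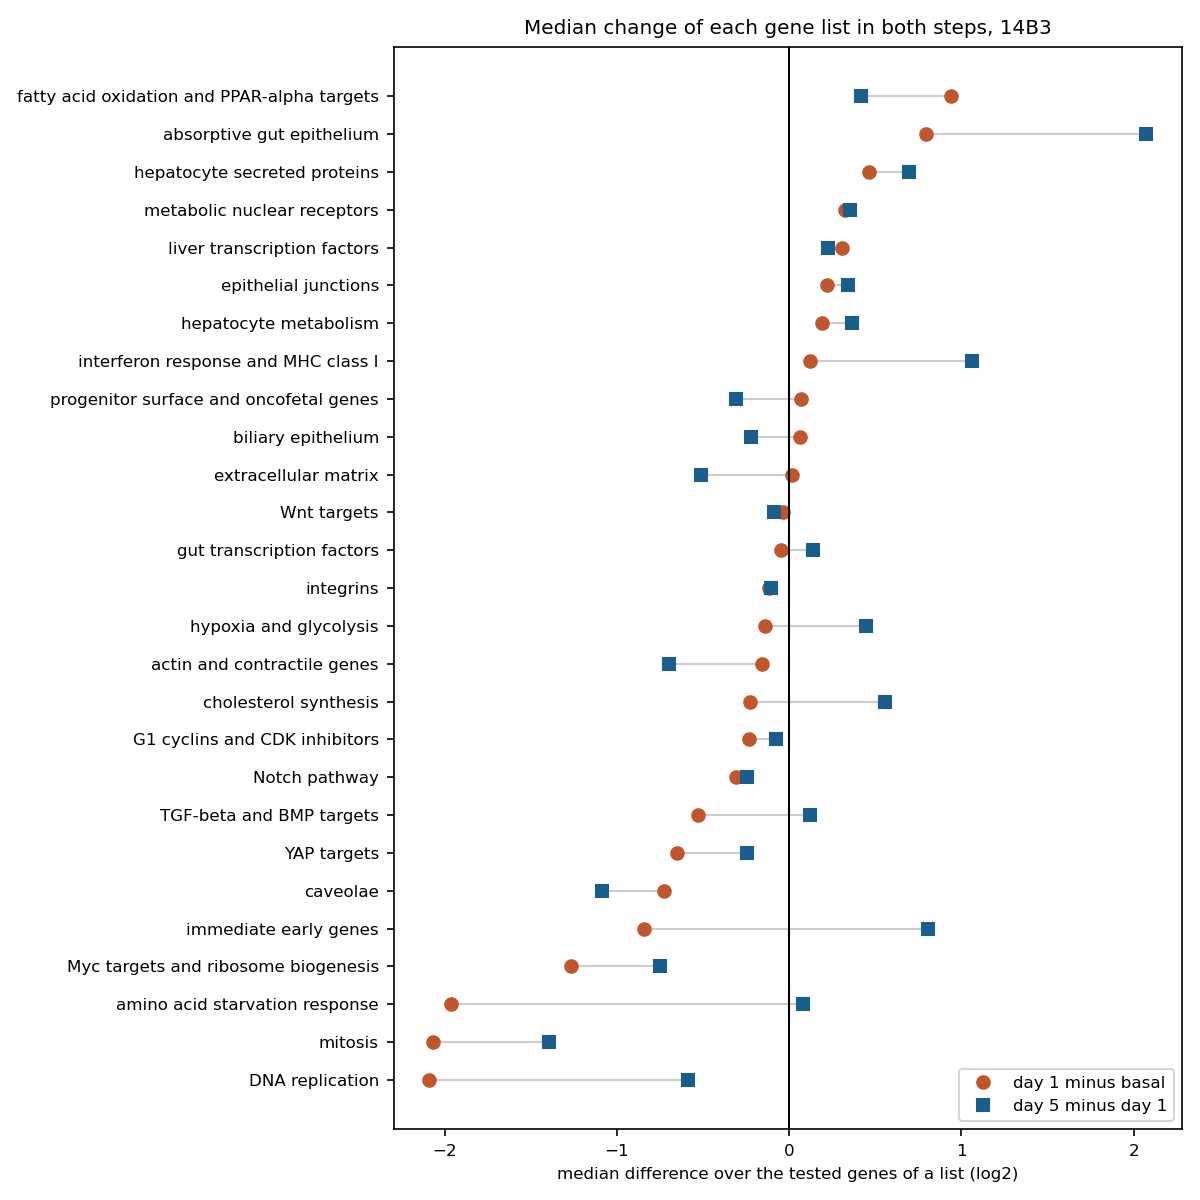
Each line is a gene list; the horizontal axis is the median log2 difference over its tested genes, with circles for day 1 minus basal and squares for day 5 minus day 1. DNA replication (-2.09) and mitosis (-2.07) have the lowest medians in the first step, and absorptive gut epithelium (2.07) the highest in the second.

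The first step was marked by a fall of the genes that copy and separate chromosomes. Of 34 tested DNA replication genes 33 fell from basal culture to day 1, with a median difference of -2.09 against -0.0046 over all genes, where 18.6% of genes fell. The helicase loader Cdc6, which licenses replication origins, read 9.88 and 9.27 in basal culture, 5.67 and 5.29 on day 1 and 5.72 and 5.58 on day 5. Its basal pair lay far above the other 4 arrays, which overlapped among themselves: the gene fell 17.1-fold in the first step (log2 difference -4.10 ± 0.23, SE; adjusted p = 5.6e-06), and the second step gave 0.17 ± 0.23 (SE; adjusted p = 0.65). Gins1, a subunit of the replicative helicase, stood at 11.12 and 10.68 (basal), 7.77 and 7.49 (day 1) and 6.83 and 6.71 (day 5), falling in both steps with the 3 cultures apart. The difference between its steps was 2.42 ± 0.30 (SE; adjusted p = 0.00052), so the first fall was the larger. In the same test 28 of the 34 genes had the higher second-step difference (14.3% of all genes) and 0 the lower. In the second step 20 of 34 fell again (19.6% of all genes), among them Dbf4, the activator of the origin-firing kinase, at 11.25 and 11.14 in basal culture, 8.76 and 8.57 on day 1 and 7.42 and 7.27 on day 5. That count of 20 became 12 without day 1 replicate 1 or without day 5 replicate 2. Against the list, the sliding clamp Pcna read 13.44 and 13.28 (basal), 12.26 and 12.33 (day 1) and 13.24 and 13.08 (day 5): both day 1 arrays were below the other 4, and the gene fell 2.1-fold and then rose 1.82-fold.

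Mitosis genes fell through both steps. All 29 tested members fell from basal culture to day 1 (median -2.07, with 18.6% of all genes falling). All 29 fell again to day 5 (median -1.39, with 19.6% of all genes falling). Aurora kinase B (Aurkb), which corrects chromosome attachment, read 10.43 and 10.28 in basal culture, 7.42 and 7.29 on day 1 and 6.78 and 6.69 on day 5. Cyclin B2 (Ccnb2), a partner of the mitotic kinase, was the 1 member with the larger fall in the second step, at 11.39 and 11.15 (basal), 9.80 and 9.71 (day 1) and 6.83 and 6.81 (day 5). It fell 2.86-fold and then 7.64-fold, and the difference between its steps was -1.42 ± 0.20 (SE; adjusted p = 0.0011). The proliferation marker Mki67 stood at 11.19 and 11.19 in basal culture, 9.60 and 9.38 on day 1 and 8.03 and 7.19 on day 5, with the cultures apart at each step although its day 5 arrays differed from each other more than its earlier pairs did. For 11 of the 29 genes the second difference was the higher (14.3% of all genes). As a bulk measurement, these falls cannot tell fewer dividing cells from less RNA of these genes in each cell.

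Cyclins and inhibitors of the G1 phase did not move as one. Cyclin E2 (Ccne2), which drives entry into S phase, read 8.70 and 8.30 (basal), 4.88 and 3.81 (day 1) and 4.89 and 4.94 (day 5) and fell in the first step, to readings under the floor. Cyclin D1 (Ccnd1), the growth factor-responsive G1 cyclin, stepped down in both steps: 12.40 and 12.32 in basal culture, 9.98 and 9.75 on day 1 and 9.05 and 8.82 on day 5. Its relative Ccnd3 was highest on day 1, at 9.25 and 9.05 (basal), 10.34 and 10.41 (day 1) and 9.32 and 9.59 (day 5). The kinases that D cyclins activate changed later: Cdk4 stood at 11.91 and 11.92 in basal culture, 11.66 and 11.73 on day 1 and 9.92 and 9.77 on day 5, with a first-step difference of -0.22 ± 0.08 (SE; adjusted p = 0.07) and a 3.6-fold fall in the second, and the difference between its steps was -1.63 ± 0.14 (SE; adjusted p = 0.0001). The retinoblastoma relative Rbl1, a repressor of E2F target genes, was lowest on day 1 and rose again: 9.84 and 9.42 (basal), 7.58 and 7.08 (day 1) and 8.92 and 8.82 (day 5). The CDK inhibitor Cdkn1a was high throughout, between 12.05 and 12.56, with neither step called. Another inhibitor, Cdkn2b, had unequal basal arrays at 5.77 and 8.58, then 5.46 and 5.85 on day 1 and 9.25 and 8.91 on day 5. Its second-step rise of 3.43 ± 0.70 (SE; adjusted p = 0.0045) was not called without day 1 replicate 1 (adjusted p = 0.051).

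The promoters of the replication genes were searched for the letters bound by E2F factors, which drive these genes in S phase. RefSeq windows of 250 bases before the gene start (build GRCm38.p6) were at hand for 29 of the 34 genes, in 34 windows. TTTCCCGC or TTTGGCGC, on either strand, stood in 6 of the 34 windows (17.6%) and in 427 of all 32851 windows (1.3%). Mitosis genes, with 25 windows, had 0 with these letters, while CCAAT was in 18 of them (72%, against 33.8% of all windows) and TTTGAA, the core of the cell cycle homology region, in 8 (32%, against 16% of all). CCAAT was also in 17 of the 34 replication windows (50%). These shares describe letters in a window and not bound sites. The window of Cdc6, the replication gene with the largest first-step fall among those holding the E2F letters, is shown to let these be seen in place, at chr11:98907901-98908150 on the plus strand, with the match in capitals:

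Cdc6: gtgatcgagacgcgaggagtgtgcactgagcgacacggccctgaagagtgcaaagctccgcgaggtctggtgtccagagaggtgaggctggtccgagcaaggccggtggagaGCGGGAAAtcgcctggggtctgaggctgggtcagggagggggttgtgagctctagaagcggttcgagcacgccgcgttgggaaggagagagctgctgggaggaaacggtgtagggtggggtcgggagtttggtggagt

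Genes of ribosome production fell with the cell cycle genes. Of 25 tested Myc targets and ribosome biogenesis genes, 24 fell in the first step (median -1.26, 18.6% of all genes falling) and 19 in the second (median -0.75, 19.6% of all genes). Myc, a transcription factor for growth genes, read 11.66 and 10.84 in basal culture, 8.58 and 8.20 on day 1 and 9.46 and 9.38 on day 5. The day 1 pair was the lowest, and Myc fell 7.25-fold in the first step. Its partial return by day 5, 1.03 ± 0.24 (SE; adjusted p = 0.0085), was not called without day 1 replicate 2 (adjusted p = 0.089). Nop56, a core protein of the particles that methylate ribosomal RNA, stood at 12.03 and 11.94 (basal), 9.74 and 9.66 (day 1) and 8.97 and 8.93 (day 5), the 3 cultures in falling order with no overlap. Nucleophosmin (Npm1), the abundant nucleolar chaperone, fell mainly in the second step: it read 13.83 and 13.80 in basal culture, 13.22 and 13.13 on day 1 and 11.67 and 11.57 on day 5, with a difference between steps of -0.92 ± 0.11 (SE; adjusted p = 0.00051). Mycn, a relative of Myc, ran against the list in the first step, at 8.19 and 9.16 (basal), 9.86 and 9.70 (day 1) and 7.71 and 8.07 (day 5). Its rise of 1.10 ± 0.27 (SE; adjusted p = 0.012) was not called without day 1 replicate 1 (adjusted p = 0.084) or replicate 2 (adjusted p = 0.059), while its second-step fall was 3.71-fold.

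The amino acid starvation response, the set of genes that ATF4 switches on for amino acid supply, was lower on day 1 than in basal culture. Of 25 tested genes 17 fell in the first step and 1 rose (18.6% and 18.3% of all genes), with a median of -1.96. Psat1, an enzyme of serine synthesis, read 12.59 and 12.48 in basal culture, 9.19 and 8.82 on day 1 and 7.22 and 7.22 on day 5, falling 11.6-fold and then 3.45-fold. Mthfd2, which makes one-carbon units in mitochondria, stood at 11.24 and 11.17 (basal), 7.53 and 7.58 (day 1) and 8.22 and 8.40 (day 5). Chac1, which breaks down glutathione, read 10.59 and 10.14 in basal culture, 6.71 and 6.55 on day 1 and 7.89 and 8.44 on day 5, and the pseudokinase Trib3 10.30 and 11.46 (basal), 7.62 and 7.09 (day 1) and 8.99 and 9.10 (day 5). The last 3 were lowest on day 1 and rose again to day 5 without reaching their basal levels: Mthfd2 by 0.76 ± 0.11, Chac1 by 1.53 ± 0.21 and Trib3 by 1.69 ± 0.32 on the log2 scale (SE). In the second step 9 of the 25 rose and 8 fell (16.8% and 19.6% of all genes). The difference was higher in the second step in 14 and lower in 2 (14.3% and 14.6% of all genes). Ddit3 (CHOP), the stress-induced partner of C/EBP factors, followed another course, at 8.61 and 9.74 in basal culture, 9.21 and 9.23 on day 1 and 11.21 and 10.46 on day 5, with its rise in the second step (3.07-fold, adjusted p = 0.005).

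Immediate early genes, which growth factors and stress switch on within minutes, dipped on day 1. Of 21 tested members 12 fell in the first step and 2 rose (median -0.84, with 18.6% of all genes falling). In the second 12 rose and 2 fell (median 0.81, with 16.8% of all genes rising). The phosphatase gene Dusp1, which shuts off MAP kinases, read 10.72 and 11.01 (basal), 8.81 and 8.41 (day 1) and 12.18 and 10.47 (day 5). The AP-1 subunit gene Fos was at 9.76 and 11.07 in basal culture, 8.94 and 8.64 on day 1 and 12.83 and 11.70 on day 5. In both the day 5 arrays were unequal, replicate 1 being the higher: 6 of the 21 genes were at least 2-fold higher on replicate 1 than on replicate 2 on day 5 and 0 were lower, against 42 and 3 of all 15400 genes. The second-step rises were 2.71 ± 0.44 for Dusp1 (SE; adjusted p = 0.0012) and 3.47 ± 0.43 for Fos (SE; adjusted p = 0.00027), and both stayed called without either day 5 array. The first-step fall of Fos (adjusted p = 0.016) was not called without basal replicate 2 (adjusted p = 0.063), day 1 replicate 1 (adjusted p = 0.07) or day 1 replicate 2 (adjusted p = 0.12). Fosl1, another AP-1 subunit, fell 4.48-fold and 1.89-fold in the 2 steps with its 3 cultures apart, and Fosl2 rose in the first at 9.16 and 9.56 (basal), 10.49 and 10.37 (day 1) and 10.66 and 10.49 (day 5).

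Targets of YAP, the coactivator that responds to cell shape and attachment, fell on day 1 in 15 of 22 tested genes (18.6% of all genes). In the list 0 genes rose (18.3% of all genes), and the median was -0.65. In basal culture 3 of the 22 were at least 2-fold higher on replicate 1 than on replicate 2 and 0 the other way, against 16 and 82 of all genes. Ankrd1, a commonly used YAP target, read 9.48 and 8.09 in basal culture, 6.84 and 7.01 on day 1 and 5.84 and 6.08 on day 5. Tissue factor (F3), which starts coagulation, was lowest on day 1 and rose again by day 5, at 10.33 and 10.35 (basal), 8.60 and 8.24 (day 1) and 9.94 and 9.91 (day 5), and the difference between its steps was 3.42 ± 0.22 (SE; adjusted p = 2.5e-05). The receptor kinase Axl had no called change on day 1 and then fell 3.62-fold, at 11.83 and 11.66 in basal culture, 11.67 and 11.64 on day 1 and 9.80 and 9.78 on day 5. In the second step 5 of the 22 genes rose and 7 fell (16.8% and 19.6% of all genes). TGF-beta and BMP targets had 7 of 15 falling and 0 rising in the first step (18.6% and 18.3% of all genes). The largest fall was that of Id3, an inhibitor of basic helix-loop-helix factors, at 9.85 and 9.47 (basal), 7.76 and 7.66 (day 1) and 8.98 and 8.47 (day 5). In the second step 5 of the 15 rose and 4 fell (16.8% and 19.6% of all genes). The largest rise was that of Tgfbi, a secreted matrix protein, at 6.09 and 5.79 in basal culture, 6.23 and 6.36 on day 1 and 11.05 and 10.57 on day 5, or 22.8-fold.

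**Figure D2:**
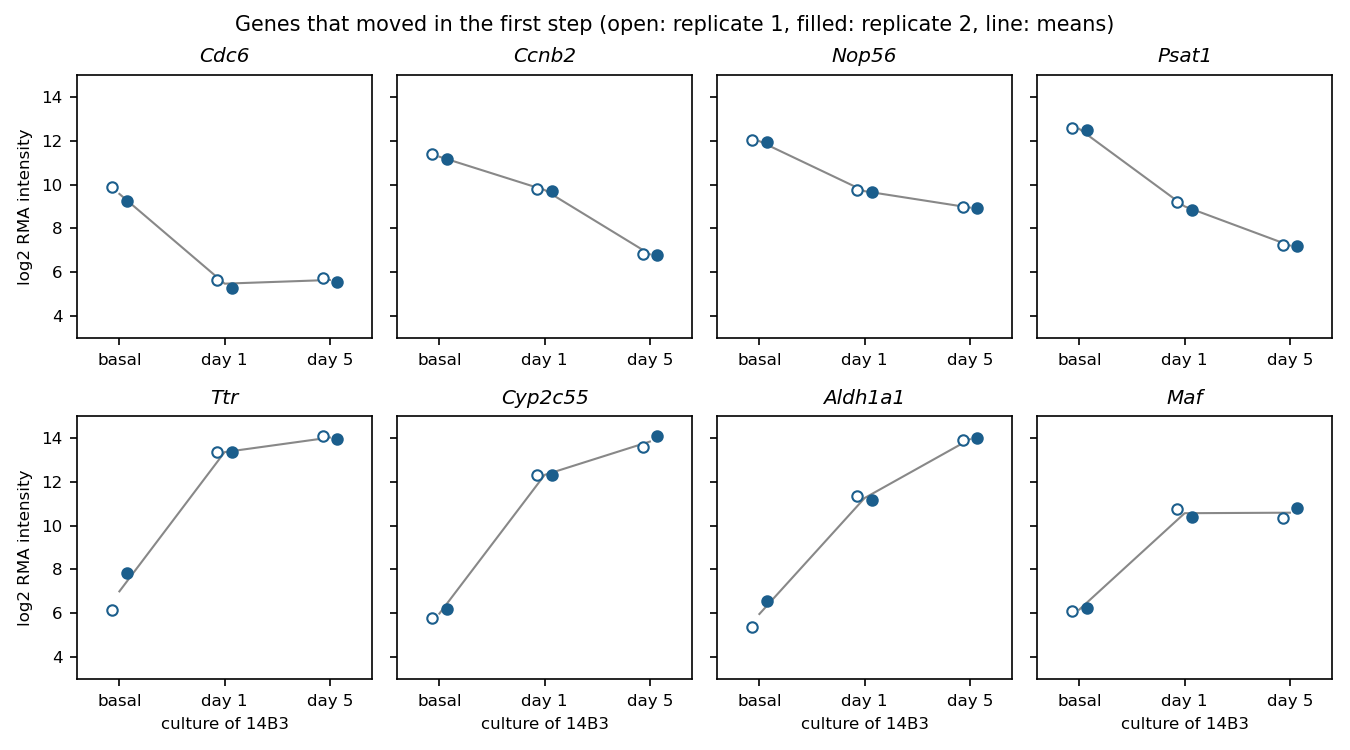
Log2 RMA intensity (vertical axis) on each 14B3 array by culture (horizontal axis) for 8 genes; open points are replicate 1, filled points replicate 2, and lines join the means. Cdc6, Ccnb2, Nop56 and Psat1 are highest in basal culture, and Ttr, Cyp2c55, Aldh1a1 and Maf are higher on both day 1 arrays than on either basal array.

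The 8 largest rises on day 1 were those of Ttr, Cyp2c55, Aldh1a1, Ugt2b5, Ces2a, Maob, Serpina7 and C4bp. Transthyretin (Ttr), a plasma carrier of thyroid hormone and retinol, read 6.14 and 7.86 (basal), 13.37 and 13.34 (day 1) and 14.10 and 13.94 (day 5). The basal arrays differed from each other by more than 1 unit, yet both lay far below the other 4; the first-step rise was 81.8-fold (log2 difference 6.35 ± 0.42, SE; adjusted p = 1.2e-05), and the second step, at 0.66 ± 0.42 (SE; adjusted p = 0.28), was not called. The cytochrome Cyp2c55 rose 80.3-fold and then 2.87-fold, at 5.80 and 6.18 in basal culture, 12.32 and 12.31 on day 1 and 13.57 and 14.10 on day 5. Aldh1a1, which makes retinoic acid from retinal, stood at 5.38 and 6.56 (basal), 11.37 and 11.16 (day 1) and 13.90 and 13.99 (day 5), a 39.2-fold and then a 6.42-fold rise. The glucuronosyltransferase Ugt2b5 and the carboxylesterase Ces2a followed the same course, at 4.98 and 5.98 in basal culture, 10.73 and 10.64 on day 1 and 13.56 and 13.64 on day 5 for Ugt2b5 and 5.02 and 5.88 (basal), 10.15 and 9.97 (day 1) and 13.79 and 13.90 (day 5) for Ces2a. Monoamine oxidase B (Maob) rose in the first step and had no called change after it: 6.03 and 7.52 in basal culture, 11.57 and 11.45 on day 1 and 11.88 and 11.85 on day 5. The thyroxine-binding globulin gene Serpina7 had a similar course at 4.47 and 6.44 (basal), 10.23 and 9.97 (day 1) and 9.90 and 10.07 (day 5), and the complement regulator C4bp rose in both steps, at 5.24 and 5.80 in basal culture, 10.06 and 9.91 on day 1 and 12.17 and 11.78 on day 5. For several of these the basal replicate 2 read above replicate 1: 82 genes of 15400 were at least 2-fold higher on basal replicate 2 and 16 on replicate 1. Close paralogs in the Cyp2c, Ugt2b, Ces2 and Clca families were not separated here beyond the probe sets' own gene assignment.

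Many secreted hepatocyte proteins rose. Of 30 tested genes 14 rose and 0 fell in the first step (median 0.46, with 18.3% of all genes rising). In the second step 17 rose and 1 fell (median 0.69, with 16.8% of all genes rising). Through 1 culture alone 2 of the 30 had reached the floor, 1 through day 1 and 1 through day 5. Of the other 28 genes 16 rose and 1 fell in the second step. Albumin (Alb), the main plasma protein, climbed in both: 6.20 and 5.57 (basal), 9.79 and 9.58 (day 1) and 13.63 and 12.01 (day 5). It rose 13.9-fold and then 8.78-fold, with its day 5 arrays further apart than the other pairs. Apolipoprotein A1 (Apoa1), the main protein of high density lipoprotein, also rose in both steps at 8.61 and 9.93 in basal culture, 12.48 and 12.48 on day 1 and 14.66 and 14.67 on day 5. Over the list 6 genes had the higher and 6 the lower difference in the second step (14.3% and 14.6% of all genes). Among the higher were Apoa4 and Apoc3, apolipoproteins of triglyceride-rich particles. Apoa4 read 6.15 and 6.64 (basal), 7.31 and 7.33 (day 1) and 13.90 and 13.24 (day 5), a second-step rise of 76.2-fold. Apoc3 read 5.29 and 5.43 in basal culture, 7.11 and 7.09 on day 1 and 12.34 and 11.90 on day 5, a rise of 32.5-fold. For these the second difference was the higher, by 5.33 ± 0.39 in Apoa4 (SE; adjusted p = 3.7e-05) and by 3.28 ± 0.29 in Apoc3 (SE; adjusted p = 9.2e-05). The fibrinogen alpha chain gene Fga read 4.43 and 4.12 (basal), 4.32 and 4.63 (day 1) and 9.70 and 8.23 (day 5), so that 4 arrays lay under the floor and the day 5 pair above it. Across the list 5 of 30 genes were at least 2-fold higher on day 5 replicate 1 than on replicate 2, and 0 the other way. The retinol carrier Rbp4, high throughout, fell in the second step: 11.98 and 12.36 in basal culture, 12.80 and 12.73 on day 1 and 12.07 and 11.67 on day 5. Several genes that mature hepatocytes express strongly stayed low on all 6 arrays, among them Apoe at 4.74 to 5.11, haptoglobin (Hp) at 5.95 to 6.35 and vitronectin (Vtn) at 5.28 to 5.92; these 3 were picked after their values were seen.

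Metabolic genes of the hepatocyte also rose in part. Of 28 tested genes 13 rose and 1 fell in the first step (18.3% and 18.6% of all genes). In the second 1 fell (19.6% of all genes) and 15 rose (16.8%), a count that became 9 without either day 5 array. Through day 5 alone 5 of the 28 had reached the floor, and of the other 23 genes 11 rose and 1 fell. Glutathione transferase Gstm1 was an early gene that rose 7.68-fold, with both basal arrays below the other 4. Mttp, the transfer protein that loads lipid onto apolipoprotein B, was a late one at 7.04 and 7.06 (basal), 8.08 and 7.67 (day 1) and 13.14 and 12.76 (day 5), rising 33.7-fold. Dpyd, which breaks down pyrimidines, and G6pc, the last enzyme of glucose output, were under the floor until day 1: Dpyd read 3.89 and 3.87 in basal culture, 4.16 and 3.74 on day 1 and 9.82 and 8.76 on day 5. G6pc read 4.80 and 4.56 (basal), 4.74 and 4.71 (day 1) and 9.36 and 8.33 (day 5). For Mttp the difference between steps was 4.25 ± 0.29 (SE; adjusted p = 3.1e-05). Histidine ammonia-lyase (Hal) peaked on day 1 at 5.60 and 6.18 in basal culture, 9.43 and 9.37 on day 1 and 7.71 and 7.69 on day 5.

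Fatty acid oxidation genes rose mainly in the first step. Of 20 tested genes 17 rose and 2 fell from basal culture to day 1 (median 0.94, with 18.3% of all genes rising). Afterwards 11 rose and 3 fell (median 0.41, with 16.8% of all genes rising). In 11 of the 20 the second difference was the lower (14.6% of all genes), and in 1 the higher. The carnitine carrier Slc25a20 read 9.79 and 9.91 (basal), 11.54 and 11.42 (day 1) and 12.19 and 12.28 (day 5). The thiolase Acaa2 read 10.11 and 10.53 in basal culture, 12.01 and 12.01 on day 1 and 12.60 and 12.62 on day 5; both rose without overlap. Carnitine palmitoyltransferase 1a (Cpt1a), the gate of mitochondrial oxidation, was highest on day 1, at 10.98 and 11.42 (basal), 12.52 and 12.54 (day 1) and 11.72 and 11.72 (day 5): it rose 2.51-fold and fell 1.75-fold. Ehhadh, an enzyme of peroxisomal oxidation, was under the floor on the first 4 arrays, at 4.05 and 4.42 in basal culture, 4.61 and 3.99 on day 1 and 8.59 and 8.52 on day 5. The nuclear receptor that drives such genes, Ppara, rose in the second step at 5.49 and 5.57 (basal), 5.84 and 6.09 (day 1) and 8.44 and 7.93 (day 5).

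Genes of the absorptive gut epithelium, which take up nutrients through a brush border, had the highest list median in the second step. Of 32 tested genes 24 rose and 0 fell (median 2.07, with 16.8% of all genes rising). Through day 5 alone 3 of the 32 had reached the floor, and of the other 29 genes 21 rose (median 1.67). The first step had 17 rising and 1 falling (median 0.80, with 18.3% of all genes rising). Some members rose in both steps. Intestinal fatty acid-binding protein (Fabp2) read 5.61 and 7.43 in basal culture, 10.45 and 10.26 on day 1 and 13.89 and 13.84 on day 5, and intestinal alkaline phosphatase (Alpi), an enzyme of the brush border, 6.81 and 6.43 (basal), 10.32 and 10.12 (day 1) and 13.90 and 13.95 (day 5). Epithelial villin (Vil1), which bundles actin in microvilli, and the liver and gut fatty acid-binding protein Fabp1 rose in the first step, with second-step differences that were not called: Vil1 stood at 8.44 and 9.54 in basal culture, 12.12 and 12.03 on day 1 and 12.67 and 12.68 on day 5. Fabp1 stood at 10.01 and 11.70 (basal), 14.13 and 14.08 (day 1) and 14.69 and 14.62 (day 5). Other members moved in the second step alone by their calls. The sterol importer Npc1l1 read 6.20 and 6.34 in basal culture, 6.41 and 6.26 on day 1 and 11.55 and 11.12 on day 5. The brush border protease Mep1b read 4.98 and 4.31 (basal), 4.59 and 4.84 (day 1) and 10.39 and 10.28 (day 5), and the peptide transporter Slc15a1 3.80 and 3.69 in basal culture, 3.90 and 3.86 on day 1 and 8.27 and 7.85 on day 5. Npc1l1 rose 32.1-fold, with the second difference exceeding the first by 4.95 ± 0.29 (SE; adjusted p = 1.7e-05), while Mep1b and Slc15a1 were under the floor on the first 4 arrays. Not all brush border genes took part: the glucose transporter Slc5a1 stayed between 5.29 and 5.62 and the anion exchanger Slc26a3 between 4.69 and 5.32 on the 6 arrays. Vil1, Fabp1, Alpi, Slc15a1, Slc5a1 and Slc26a3 were chosen after their values were seen.

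The 8 largest rises of the second step exceeded every second-step rise given so far. Clca4b, of the calcium-activated chloride channel regulator family, lies at chr3:144910921-144932529 (GRCm38.p6) and read 5.43 and 5.27 (basal), 5.47 and 5.63 (day 1) and 13.95 and 13.82 (day 5). It stayed between 5.27 and 5.63 on the first 4 arrays and was 323-fold higher on day 5 than on day 1 (adjusted p = 1e-08). Lypd8, a surface protein of the colon lining, stood at 4.83 and 4.88 in basal culture, 7.36 and 7.16 on day 1 and 14.39 and 14.39 on day 5, with a 5.3-fold and a 140.2-fold rise. The sulfate carrier Slc13a1 read 5.02 and 4.73 (basal), 5.54 and 5.45 (day 1) and 13.02 and 12.67 (day 5), and the cytochrome Cyp2c29 5.55 and 5.31 in basal culture, 5.15 and 5.34 on day 1 and 12.51 and 12.47 on day 5. The genes 2210407C18Rik and 1810065E05Rik rose 248-fold and 144-fold, and 2010106E10Rik was under the floor until day 5; Bcl2l15, of the BCL2 family, 136-fold. In each of these 8 the day 5 pair lay above the other 4 arrays and the difference between steps was called.

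**Figure D3:**
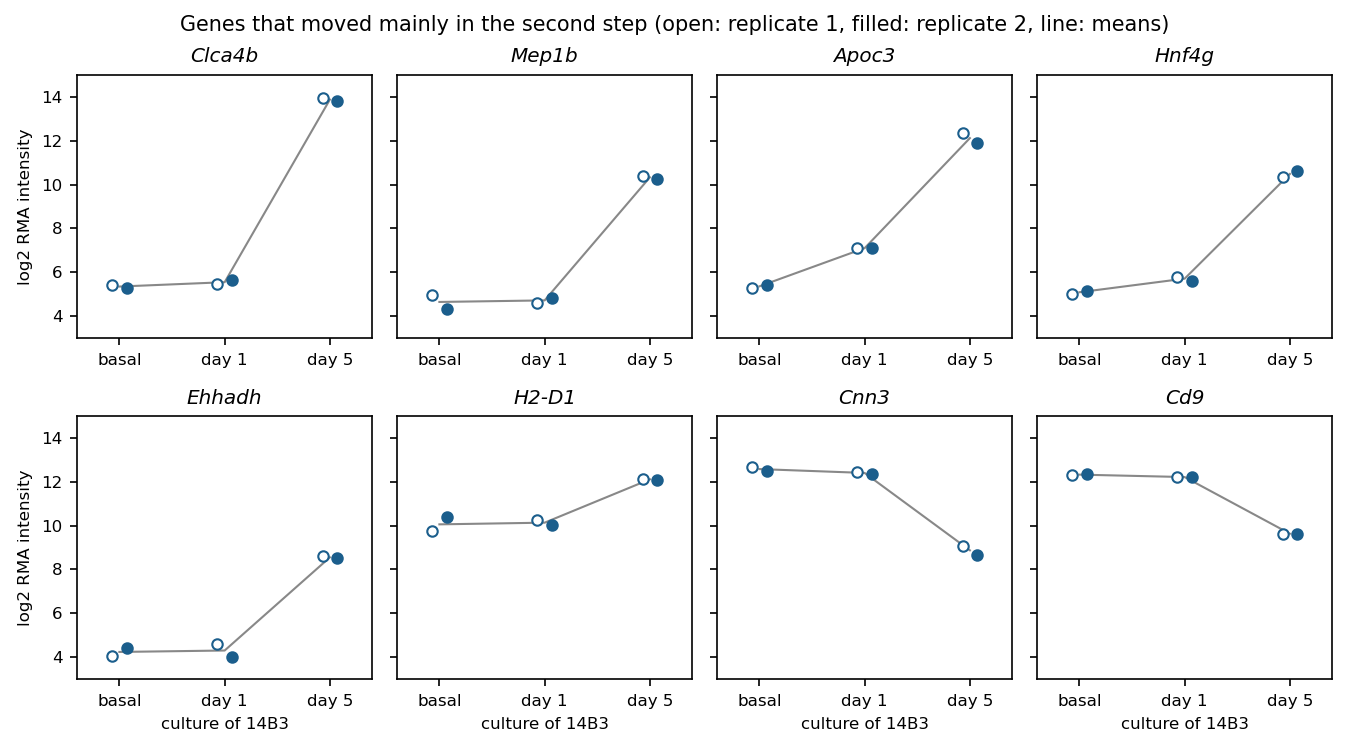
Log2 RMA intensity (vertical axis) on each 14B3 array by culture (horizontal axis) for 8 genes; open points are replicate 1, filled points replicate 2, and lines join the means. Clca4b, Mep1b, Apoc3, Hnf4g, Ehhadh and H2-D1 are highest on both day 5 arrays, and Cnn3 and Cd9 are lowest there.

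Liver transcription factors moved in both directions. Of 18 tested liver factors 7 rose and 1 fell in the first step (18.3% and 18.6% of all genes). Hnf4a rose 2.0-fold, and Onecut2 rose 4.44-fold at 7.56 and 9.09 (basal), 10.50 and 10.44 (day 1) and 10.04 and 9.62 (day 5). In the second step 5 rose and 4 fell (16.8% and 19.6% of all genes). The 5 became 8 without basal replicate 1 or without basal replicate 2, and 2 without day 5 replicate 1. Through day 5 alone 1 of the 18 had reached the floor. Of the other 17 genes 6 rose in the first step and 4 in the second. Creb3l3, a membrane-bound factor of fasting metabolism, rose 9.52-fold in that step at 8.14 and 7.86 in basal culture, 7.82 and 8.27 on day 1 and 11.53 and 11.06 on day 5. The pioneer factors Foxa1 and Foxa2 fell in it: Foxa1 read 10.40 and 10.80 (basal), 11.02 and 10.87 (day 1) and 9.29 and 9.17 (day 5). Foxa2 read 10.64 and 10.31 in basal culture, 10.50 and 10.41 on day 1 and 8.92 and 8.83 on day 5. Of 13 tested gut factors 5 rose and 0 fell in the first step (18.3% and 18.6% of all genes), and 5 rose and 1 fell in the second (16.8% and 19.6%). The 1 that fell, Sox9, a factor of ducts and crypts, read 7.60 and 8.08 (basal), 7.54 and 7.50 (day 1) and 6.81 and 6.30 (day 5) and was not called without day 5 replicate 2 (adjusted p = 0.063). The intestinal master factor Cdx2 was already near 10 in basal culture and rose 1.67-fold, at 9.92 and 10.03 in basal culture, 10.77 and 10.66 on day 1 and 10.88 and 11.09 on day 5. Maf rose 21.0-fold on day 1 and stayed there at 6.11 and 6.25 (basal), 10.75 and 10.38 (day 1) and 10.37 and 10.81 (day 5). Hnf4g, the gut-enriched relative of Hnf4a, rose 27.4-fold in the second step, at 5.02 and 5.16 in basal culture, 5.80 and 5.62 on day 1 and 10.36 and 10.61 on day 5. Isx, an intestinal homeobox factor, rose 6.17-fold in it, at 6.18 and 6.12 (basal), 5.91 and 5.95 (day 1) and 8.59 and 8.53 (day 5). Among 14 metabolic nuclear receptors 5 rose in the first step and 6 in the second (18.3% and 16.8% of all genes), and 0 fell in either. The pregnane X receptor Nr1i2 read 6.27 and 7.92 in basal culture, 9.37 and 9.39 on day 1 and 10.07 and 10.14 on day 5. The constitutive androstane receptor Nr1i3, a late riser, read 5.40 and 5.85 (basal), 5.72 and 5.88 (day 1) and 7.81 and 7.92 (day 5).

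A group of genes peaked on day 1. Gelsolin (Gsn), which severs actin filaments and lies at chr2:35256359-35307902 (GRCm38.p6), read 9.51 and 9.12 in basal culture, 11.11 and 11.08 on day 1 and 6.81 and 7.03 on day 5: it rose 3.42-fold and then fell 18.1-fold, with the 3 cultures fully apart and a difference between steps of -5.95 ± 0.26 (SE; adjusted p = 5.8e-06). The collagenase Mmp13 had the same course at 8.04 and 8.66 (basal), 10.03 and 9.78 (day 1) and 5.65 and 5.92 (day 5). Plin4, a coat protein of lipid droplets, rose 6.44-fold and then fell 7.96-fold, at 6.87 and 7.20 in basal culture, 9.74 and 9.69 on day 1 and 6.68 and 6.77 on day 5. The water channel Aqp1, found in bile duct epithelium, was at 6.04 and 7.24 (basal), 10.39 and 10.25 (day 1) and 8.04 and 8.29 (day 5), and Bicc1, an RNA-binding protein of ducts and tubules, at 7.75 and 8.82 in basal culture, 11.05 and 10.97 on day 1 and 8.87 and 8.09 on day 5. The receptor Notch1, of the pathway that specifies bile ducts, stood at 8.90 and 9.03 (basal), 10.60 and 10.66 (day 1) and 7.69 and 7.49 (day 5), rising 3.17-fold and falling 8.24-fold from there, to below its basal arrays. Hhex, an early liver bud factor, was at 8.57 and 8.96 in basal culture, 10.61 and 10.56 on day 1 and 9.43 and 9.40 on day 5. These genes cross several lists. Gsn, Aqp1, Ttr, Plin4 and Mmp13 had the most negative difference between steps of all named genes. Of these Ttr did not peak on day 1: it rose in the first step, and its second step was not called.

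**Figure D4:**
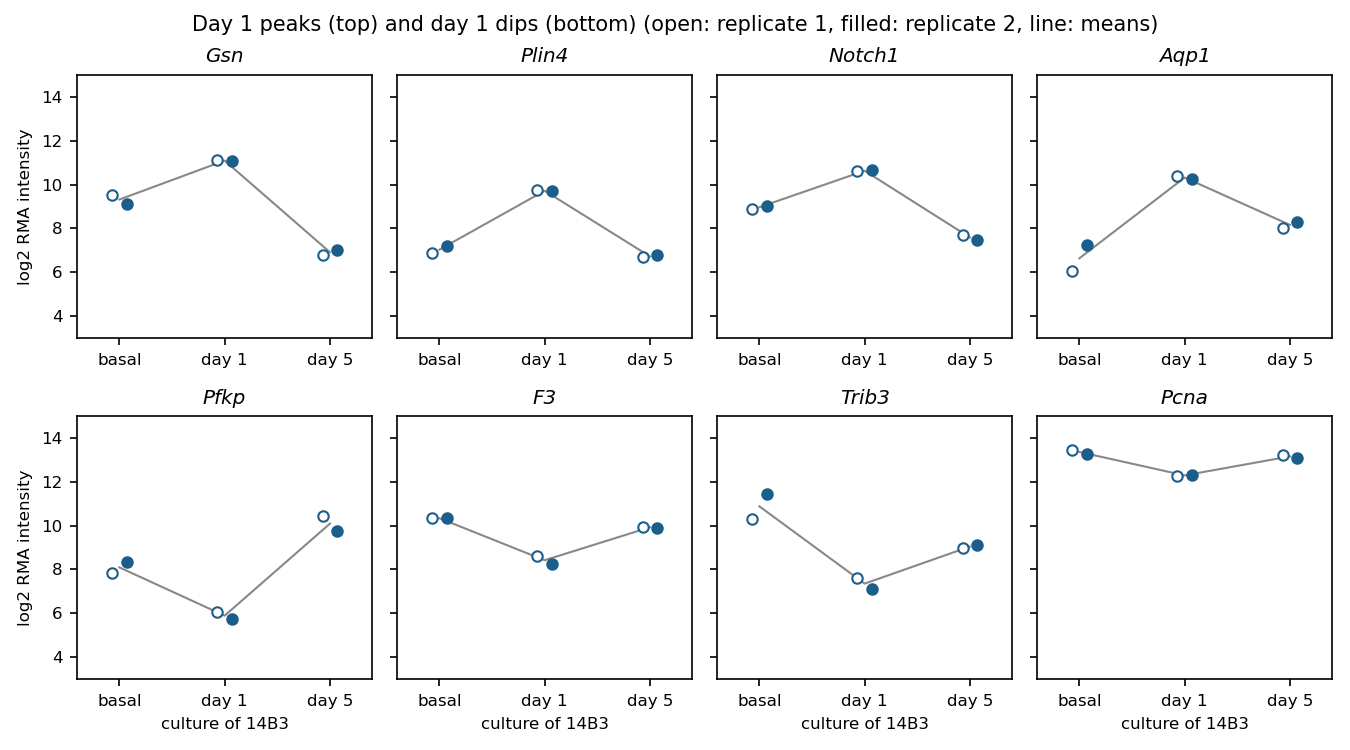
Log2 RMA intensity (vertical axis) on each 14B3 array by culture (horizontal axis); open points are replicate 1, filled points replicate 2, and lines join the means. In the upper row (Gsn, Plin4, Notch1, Aqp1) both day 1 arrays lie above the other 4, and in the lower row (Pfkp, F3, Trib3, Pcna) both lie below them.

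The bile duct list showed no common course. Of 18 tested genes 6 rose and 1 fell in the first step (18.3% and 18.6% of all genes), and 3 rose and 8 fell in the second (16.8% and 19.6%). Epcam, an epithelial surface protein of progenitors, ducts and gut, rose in both steps: 6.86 and 7.48 (basal), 10.07 and 9.93 (day 1) and 13.14 and 12.90 (day 5), or 7.1-fold and 8.1-fold. Keratin 7 (Krt7), a duct keratin, fell in both steps at 11.96 and 11.73 in basal culture, 10.82 and 10.75 on day 1 and 9.61 and 9.63 on day 5. The chloride channel Cftr was near the bottom of the scale until day 1 and rose to 8.66 and 7.49 on day 5. Sox4, a regulator of duct formation, was not called in the first step and fell 3.08-fold, at 12.65 and 13.04 (basal), 13.05 and 12.95 (day 1) and 11.40 and 11.36 (day 5).

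More progenitor and oncofetal genes fell in the second step than in the first. Of 20 tested genes 4 rose and 5 fell in the first step (18.3% and 18.6% of all genes). In the second 4 rose and 10 fell (16.8% and 19.6% of all genes). For 8 genes the second difference was the lower and for 2 the higher (14.6% and 14.3% of all genes). The chromatin protein Hmga2, typical of embryonic cells, read 12.50 and 12.34 in basal culture, 11.37 and 11.16 on day 1 and 8.06 and 7.86 on day 5, a 2.23-fold and then a 9.87-fold fall. The tetraspanin Cd9 had no called change on day 1 and then fell 6.0-fold, at 12.31 and 12.35 (basal), 12.23 and 12.21 (day 1) and 9.63 and 9.64 (day 5). Cd24a, a sialoglycoprotein of progenitor surfaces, had the same calls at 12.64 and 12.79 in basal culture, 12.89 and 12.74 on day 1 and 10.75 and 10.68 on day 5, falling 4.29-fold. Cd44, the hyaluronan receptor, fell in both steps at 11.81 and 11.83 (basal), 11.01 and 10.77 (day 1) and 9.26 and 9.03 (day 5). Bex1 had the largest net fall of the list, with day 5 minus basal at -5.75 ± 0.30 (SE), at 11.91 and 11.85 in basal culture, 8.75 and 8.14 on day 1 and 6.62 and 5.63 on day 5. Igf2, a fetal growth factor, stayed between 6.74 and 7.28 on the 6 arrays. Epcam, also in this list, ran against it and rose in both steps, by 2.83 and 3.02 on the log2 scale. Afp rose by 0.71 in the second step. Prom1 fell in the first step (-0.47) and rose in the second (0.67, and 0.58 without day 5 replicate 2).

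Junction genes included an exchange of connexins. Gja1, the connexin of proliferating and mesenchymal cells, read 12.82 and 12.84 (basal), 10.19 and 10.17 (day 1) and 8.83 and 9.06 (day 5). Gjb1, the main hepatocyte connexin, read 6.98 and 8.24 in basal culture, 9.62 and 9.65 on day 1 and 11.98 and 12.08 on day 5. Gja1 fell 6.28-fold and 2.35-fold while Gjb1 rose 4.07-fold and 5.25-fold, with no overlap between cultures in either gene. Across 29 tested junction genes 10 rose and 3 fell in the first step (18.3% and 18.6% of all genes), and 11 rose and 3 fell in the second (16.8% and 19.6%). Desmoplakin (Dsp), which anchors keratins at desmosomes, rose in the first step at 10.49 and 10.95 (basal), 12.32 and 12.26 (day 1) and 12.02 and 11.88 (day 5). Claudin 6 (Cldn6), a claudin of embryonic epithelia, fell 6.71-fold and 5.04-fold, at 11.39 and 10.60 in basal culture, 8.48 and 8.01 on day 1 and 5.94 and 5.88 on day 5. Occludin (Ocln), of tight junctions, rose in the second step at 7.90 and 9.15 (basal), 9.47 and 9.05 (day 1) and 11.06 and 11.14 (day 5), its basal arrays being unequal.

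Many actin, caveolae and matrix genes fell. Of 27 actin and contractile genes 1 rose and 9 fell in the first step (18.3% and 18.6% of all genes). In the second 3 rose and 18 fell (16.8% and 19.6% of all genes), with a median of -0.70, against -0.0285 over all genes. Calponin 3 (Cnn3), an actin-binding protein, was called in the second step alone: it read 12.69 and 12.47 in basal culture, 12.43 and 12.38 on day 1 and 9.07 and 8.67 on day 5, a second-step fall of 11.5-fold. Troponin T2 (Tnnt2), the heart troponin, had the largest first-step fall of the list, 27.9-fold at 11.79 and 11.35 (basal), 7.16 and 6.37 (day 1) and 5.67 and 5.60 (day 5), and Cnn2 and Myh10 fell 2.97-fold and 2.65-fold in that step. Caveolin 1 (Cav1), the coat protein of caveolae, fell in both steps at 12.40 and 11.99 in basal culture, 9.51 and 9.38 on day 1 and 6.82 and 7.12 on day 5. Of 7 tested caveolae genes 5 fell in the first step and 6 in the second (18.6% and 19.6% of all genes). Through basal culture alone 1 of the 7 had reached the floor, and of the other 6 genes 5 fell in the first step and 6 in the second. Of 27 matrix genes 5 rose and 4 fell in the first step (18.3% and 18.6% of all genes). In the second 0 rose and 14 fell (16.8% and 19.6% of all genes), with a median of -0.51. The 5 became 3 without basal replicate 2. Laminin beta 3 (Lamb3), of epithelial basement membrane, read 11.65 and 11.75 (basal), 11.43 and 11.52 (day 1) and 8.29 and 8.85 (day 5) and fell 7.47-fold in the second step. In 11 of the 27 matrix genes the second difference was the lower (14.6% of all genes).

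Further large falls of the second step were those of Aldh3a1, an aldehyde dehydrogenase, at 10.50 and 11.66 in basal culture, 9.75 and 9.61 on day 1 and 4.98 and 4.96 on day 5, and of the thrombin receptor F2r at 12.56 and 12.44 (basal), 11.64 and 11.38 (day 1) and 7.55 and 7.78 (day 5). Aldh3a1 fell 26.1-fold to under the log2 level of 5 that served as the floor for testing, and F2r 14.3-fold. Slc44a2, a choline transporter-like protein, was not called in the first step and then fell 12.7-fold, at 10.89 and 10.72 in basal culture, 10.70 and 10.60 on day 1 and 6.97 and 6.99 on day 5, and the surface protein Cd109 fell 12.6-fold at 10.15 and 9.76 (basal), 9.34 and 9.29 (day 1) and 5.74 and 5.59 (day 5). Cfap69, a cilium-associated protein, and Adssl1, an enzyme of AMP synthesis, each fell 11.8-fold after a first-step rise: Cfap69 read 8.40 and 8.76 in basal culture, 9.35 and 9.23 on day 1 and 5.39 and 6.07 on day 5 and Adssl1 7.91 and 7.69 (basal), 9.82 and 9.65 (day 1) and 5.91 and 6.45 (day 5). In the first step, the chemokine Ccl9 had the largest fall of all, 28.1-fold at 11.01 and 10.17 in basal culture, 5.61 and 5.95 on day 1 and 6.89 and 7.13 on day 5, and Clca3b fell 16.4-fold at 11.72 and 11.56 (basal), 7.63 and 7.57 (day 1) and 5.53 and 5.85 (day 5).

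Cholesterol synthesis genes dipped slightly and then rose. Of 20 tested genes 12 rose and 1 fell in the second step (median 0.56, with 16.8% of all genes rising). In the difference between steps 12 were higher and 1 lower (14.3% and 14.6% of all genes). The first step had 1 rising and 7 falling (18.3% and 18.6% of all genes). The 7 became 4 without basal replicate 1 and 2 without day 1 replicate 2. Dhcr7, which makes cholesterol from its last precursor, read 9.60 and 9.33 in basal culture, 9.15 and 8.92 on day 1 and 10.78 and 10.71 on day 5, rising 3.26-fold in the second step. Sc5d, the desaturase before it, was at 11.98 and 11.79 (basal), 11.69 and 11.67 (day 1) and 12.87 and 12.83 (day 5). Srebf2, the factor that drives the pathway, fell in the same step at 10.91 and 11.03 in basal culture, 10.98 and 11.02 on day 1 and 10.35 and 10.51 on day 5. CCAAT was present in 16 of the 19 promoter windows of this list (84.2%, against 33.8% of all windows), and TCACCCCAC, letters bound by SREBP factors, in 1 of them and in 0.496% of all windows. The window is that of Hmgcs1, an early enzyme of the pathway, which rose 1.43-fold in the second step, and lies at chr13:119690101-119690350 on the plus strand, with the match in capitals:

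Hmgcs1: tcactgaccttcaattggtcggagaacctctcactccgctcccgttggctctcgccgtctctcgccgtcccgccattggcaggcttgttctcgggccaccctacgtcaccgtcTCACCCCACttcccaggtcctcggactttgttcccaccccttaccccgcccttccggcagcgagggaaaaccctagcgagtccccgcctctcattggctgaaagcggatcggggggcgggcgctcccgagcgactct

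Interferon response and MHC class I genes rose in the second step in 21 of 27 tested (16.8% of all genes). In the same step 1 fell, and the median was 1.06. Through day 5 alone 2 of the 27 had reached the floor, and of the other 25 genes 19 rose and 1 fell (median 0.94). The first step had 8 rising and 2 falling (18.3% and 18.6% of all genes). The class I heavy chain H2-D1, which presents peptides to T cells, read 9.73 and 10.38 (basal), 10.24 and 10.04 (day 1) and 12.13 and 12.10 (day 5), a 3.94-fold rise, and its light chain B2m rose in both steps at 12.22 and 12.28 in basal culture, 13.08 and 13.04 on day 1 and 13.77 and 13.83 on day 5. The immunoproteasome subunit Psmb8 was at 5.84 and 5.77 (basal), 5.86 and 5.99 (day 1) and 7.64 and 7.70 (day 5), and the peptide-loading protein tapasin (Tapbp), an earlier riser, at 8.65 and 8.83 in basal culture, 10.71 and 10.68 on day 1 and 11.55 and 11.72 on day 5. The RNA sensor Ifih1 rose in both steps at 7.70 and 7.91 (basal), 9.25 and 9.04 (day 1) and 10.55 and 10.57 (day 5), and Parp14, an interferon-induced ADP-ribosyltransferase, 5.43-fold in the second at 5.37 and 5.11 in basal culture, 6.16 and 5.92 on day 1 and 8.52 and 8.44 on day 5. Classical interferon-induced genes were not all among them: Rsad2 stayed between 5.84 and 6.27, and Usp18 read 6.34 and 6.46 (basal), 6.20 and 6.18 (day 1) and 5.52 and 5.30 (day 5). The second-step fall of Usp18 (adjusted p = 0.0034) was not called without day 5 replicate 2 (adjusted p = 0.051). AANNGAAA, part of the interferon-stimulated response element, was in 12 of 27 windows of the list (44.4%, against 21.3% of all).

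Hypoxia and glycolysis genes rose in the second step in 16 of 25 tested genes (16.8% of all genes), with 0 falling. The difference was higher in that step in 13 and lower in 2 (14.3% and 14.6% of all genes). Ndrg1, a hypoxia-induced gene, had risen by day 1, at 11.08 and 11.74 in basal culture, 13.58 and 13.51 on day 1 and 13.37 and 13.34 on day 5, and Ankrd37, a target of hypoxia-inducible factors, rose in both steps at 7.96 and 7.70 (basal), 9.48 and 9.19 (day 1) and 11.46 and 11.11 (day 5). The platelet-type phosphofructokinase Pfkp, a rate-setting enzyme of glycolysis, was lowest on day 1, at 7.86 and 8.33 in basal culture, 6.05 and 5.74 on day 1 and 10.42 and 9.76 on day 5: it fell 4.61-fold and then rose 18.3-fold. Both day 1 arrays lay below all others, and the day 5 pair above them.

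Most markers of other cell types read low. Over the tested markers, the mean log2 level per array was 6.04 to 6.34 for blood cells (6 tested of 12), 6.46 to 6.75 for macrophages (9 of 12), 5.52 to 5.80 for endothelium (8 of 12), 5.82 to 6.14 for stellate cells and fibroblasts (9 of 12) and 5.79 to 6.15 for intestinal secretory cells (9 of 12). In blood cells and stellate cells 0 markers were called in either step. The macrophage growth factor receptor Csf1r rose in the first step at 7.65 and 8.32 (basal), 10.04 and 9.85 (day 1) and 9.53 and 9.84 (day 5), while the lysosomal marker Cd68 fell 2.33-fold in the second at 6.95 and 7.07 in basal culture, 7.28 and 7.40 on day 1 and 5.85 and 6.39 on day 5. The macrophage marker Adgre1 was at 4.70 to 5.18 and reached the floor through day 5 alone. Endothelial cadherin (Cdh5) read 5.18 and 5.60 (basal), 4.90 and 4.94 (day 1) and 5.65 and 5.48 (day 5), a second-step rise of 0.65 ± 0.17 on the log2 scale (SE; adjusted p = 0.015) that was not called without day 1 replicate 1 (adjusted p = 0.051) or day 5 replicate 1 (adjusted p = 0.12). The endotoxin co-receptor Cd14 was high from the start, at 10.70 and 11.29 in basal culture, 10.26 and 10.23 on day 1 and 10.21 and 10.19 on day 5, and its first-step fall (adjusted p = 0.0065) was not called without day 1 replicate 2 (adjusted p = 0.057). The mucus protein Fcgbp was at 8.73 and 8.75 (basal), 7.77 and 7.91 (day 1) and 7.83 and 7.71 (day 5). Of the secretory markers Clca1, a goblet cell product, rose 3.15-fold in the second step at 4.20 and 4.65 in basal culture, 5.54 and 5.07 on day 1 and 7.60 and 6.33 on day 5, and was not called without day 1 replicate 2 (adjusted p = 0.072). The goblet cell mucin Muc2 stayed between 5.25 and 5.91, and the secretory lineage factor Atoh1 between 5.41 and 5.83. Muc2 and Atoh1 were picked after their values were seen.

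The responses of 14B3 were compared with those of 9A1 in a limma fit over all 12 arrays and 15779 genes. Of the 6 arrays of 9A1, both of basal culture and both of day 1 were closer to an array of 14B3 than to their own replicate (correlation 0.952 between the basal arrays and 0.949 between the day 1 arrays). Basal 9A1 replicate 1 was closest to an array of another culture, day 5 14B3 replicate 1 (0.976), and day 1 9A1 replicate 2 had the smallest SD of log2 values, 2.13 against 2.25 to 2.33 on the others. For the first step 0 genes were called (522 had an unadjusted p under 0.05), and for the second step 6 were called, all with the lower response in 14B3 (0.0380% of genes; 457 had an unadjusted p under 0.05). For the meprin subunit Mep1a day 5 minus day 1 was 0.82 in 14B3 and 4.38 in 9A1 on the log2 scale, a difference of -3.55 ± 0.34 (SE; adjusted p = 0.0089). The class I gene H2-Q2 was at 3.58 and 3.64 on the day 5 arrays of 14B3 and at 8.05 and 8.59 on those of 9A1. H2-Q2 and the monocarboxylate transporter Slc5a8 were under the floor on the 10 arrays other than day 5 of 9A1, at 3.29 to 3.64 and 4.01 to 4.88, so they were tested only because they were high there. The other 3 were Mfsd4b1, Mylk3 and Meltf, the last at an adjusted p of 0.049. The count of 6 fell to 1 when any single day 1 or day 5 array of 14B3 was left out, and became 10 without day 5 9A1 replicate 2, 21 without either basal 9A1 array and 122 without day 1 9A1 replicate 1. For the first step, leaving out basal 9A1 replicate 2 gave 638 higher and 112 lower genes, and leaving out day 1 9A1 replicate 1 gave 551 and 476.

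**Figure D5:**
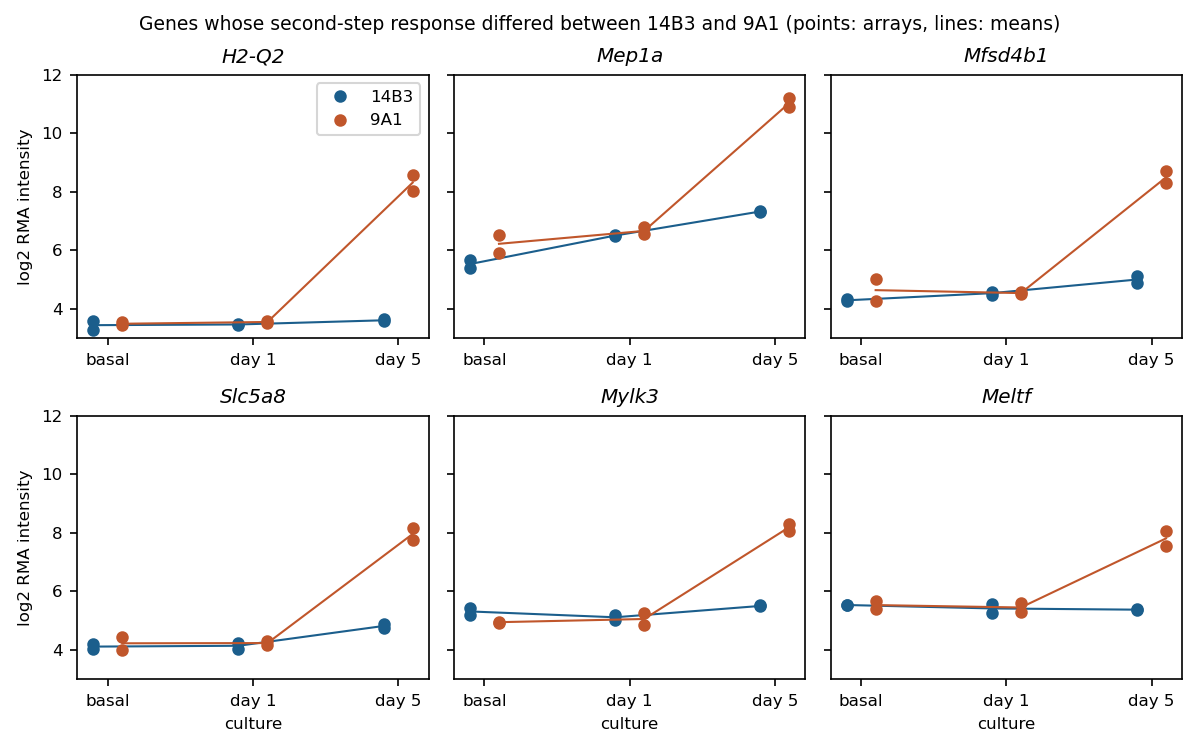
Log2 RMA intensity (vertical axis) on every array of 14B3 and 9A1 by culture (horizontal axis) for the 6 genes whose second-step response differed; points are arrays and lines join the means. The lines of the 2 cell lines separate on day 5, where H2-Q2 reads 3.58 and 3.64 in 14B3 and 8.05 and 8.59 in 9A1.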

How the data were processed

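The deposited values, per the submitters' processing notes, are log2 probe set intensities; the authors made them in R 2.3.1 by RMA. RMA gives all arrays 1 distribution, so differences in total RNA are not seen and the brightest probe sets are compressed. Of 45101 probe sets 34945 had 1 gene in the platform annotation; 932 with several, 9160 with none and 64 controls were left out. For 34741 the Entrez identifier was in RefSeq GRCm38.p6. The 18193 genes had 1 probe set each, the one with the highest mean over the 6 arrays of 14B3, and 15400 reaching log2 5 on 2 or more of these arrays were tested. limma 3.58.1 in R 4.3.3 fitted 1 mean per culture to the 6 arrays, with empirical Bayes moderation and a variance trend (3 residual and 5.63 prior degrees of freedom). The 12-array fit tested 15779 genes. The script was tested on simulated data.

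Members, lists and tests were chosen with earlier results of these data known. Of 701 genes in 33 lists 657 were on the array table and 618 were tested. Named genes were taken from the called genes of each comparison. They are the 8 largest rises and falls per step, the 5 most positive and negative differences between steps and the 5 largest per interaction. Each list added the 3 largest called changes with its direction and 1 against it. A panel of 20 was named whether called or not. The text describes only part of the genes chosen by the list rule. B2m, Foxa2 and Rsad2 were outside these rules, as were the genes said to be picked or chosen after their values were seen. Promoter windows are RefSeq's. Alternatives were the filter, the probe set rule, 2 normalizations, array weights, moderation, thresholds, a replicate block, the arrays in the fit, and leaving out each array. Only 2 arrays per culture limit the precision.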

Additional observations from a re-analysis of the deposited data

Results flagged for a closer look

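The limma test of the difference between the lines named 6 genes whose response from day 1 to day 5 was lower in 14B3 than in 9A1 (adjusted p under 0.05). On the log2 scale the 14B3 minus 9A1 difference was -4.62 for H2-Q2, an MHC class I gene, -3.55 for Mep1a, a brush border protease, and -3.49 for Mfsd4b1, a sugar transporter-like gene. It was -3.05 for Slc5a8, a monocarboxylate transporter, -2.76 for Mylk3, a myosin kinase, and -2.41 for Meltf, a melanotransferrin. H2-Q2 and Slc5a8 read under log2 5 on the 10 arrays other than day 5 of 9A1, so they were tested only because they were high there. In each of the 6 genes both day 5 arrays of 9A1 lay above both day 5 arrays of 14B3. Leaving out any single day 1 or day 5 array of 14B3 reduced the 6 calls to 1.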

How the results depend on the processing

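Of 252 named gene values called, 0 changed direction in any alternative that tested them, and several calls were lost when a single array was left out. Some genes that reached the floor through 1 culture alone, such as Fga and Dpyd, dropped under it without an array of that culture. They were not tested in that fit. With a 2-fold minimum as well, the first step had 809 genes higher and 961 lower, the second step 986 and 788, day 5 against basal 1625 and 1784, and the difference between steps 1449 and 1365. With the spread taken from all 12 arrays the counts were 538 and 817 (first step), 589 and 492 (second step), 1985 and 2221 (day 5 against basal) and 129 and 141 (difference between steps). At an adjusted p under 0.01 the difference between steps had 1331 and 1424. Leaving out each array in turn gave 2338 to 2666 higher and 2340 to 2855 lower in the first step, 1874 to 2705 and 2212 to 3133 in the second, 2974 to 3791 and 3333 to 4227 for day 5 against basal, and 1329 to 2177 and 1751 to 2318 for the difference between steps. For the comparison of the lines it gave 0 to 638 higher and 0 to 476 lower in the first step and 0 to 59 and 1 to 122 in the second. Without basal 9A1 replicate 1 and day 1 9A1 replicate 2 together, the comparison of the lines had 3 higher and 1 lower in the first step and 72 and 140 in the second. Replicate numbers did not pair the 14B3 arrays: same-numbered deviations correlated at -0.098, -0.072 and -0.019 over 15400 genes. With the replicate block the first step had 2692 and 2767 genes, the second 2473 and 2921, the difference between steps 2080 and 2075, and the comparison of the lines 4 in the second step. The causes were not tested. With 2 arrays per culture, small changes of dim genes may have been missed. Some that were called, such as that of Cdh5, were lost when an array was left out.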

Other observations

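Among 14 tested integrin genes 2 rose and 5 fell in the first step, and 2 rose and 1 fell in the second, where 18.3% and 18.6% of all genes rose and fell in the first step and 16.8% and 19.6% in the second; the 5 became 3 without day 1 replicate 2. Itga2, a collagen receptor subunit, read 6.86 and 7.70 (basal), 5.33 and 5.35 (day 1) and 5.49 and 5.52 (day 5) and fell 3.83-fold on day 1 with the basal pair above the other 4 arrays. Itga3, a laminin receptor subunit, was lowest on day 1, at 10.77 and 10.35 in basal culture, 9.54 and 9.52 on day 1 and 10.59 and 10.34 on day 5.

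Of 14 tested Wnt targets 2 rose and 1 fell in the first step (18.3% and 18.6% of all genes). In the second 0 rose and 1 fell (16.8% and 19.6% of all genes). Znrf3, which removes Wnt receptors from the surface, fell 2.26-fold on day 1 at 8.70 and 8.35 (basal), 7.61 and 7.08 (day 1) and 7.01 and 6.78 (day 5). Of 14 tested Notch pathway genes 2 rose and 5 fell in the first step (18.3% and 18.6% of all genes). The 5 became 3 without basal replicate 1 and 2 without basal replicate 2. In the second step 2 rose and 5 fell (16.8% and 19.6% of all genes). From basal culture to day 5, 2 of the 14 rose and 9 fell (23.7% and 25.9% of all genes), with a median of -0.78. Hes1, a transcriptional effector of Notch, was at 10.78 and 11.32 in basal culture, 10.17 and 10.13 on day 1 and 10.31 and 9.94 on day 5 and fell 1.87-fold in the first step. The receptor Notch2 fell in the second step at 8.97 and 9.19 (basal), 9.57 and 9.36 (day 1) and 8.12 and 7.74 (day 5), while the ligand Dll1 rose 2.36-fold at 7.15 and 6.76 in basal culture, 7.57 and 7.42 on day 1 and 8.92 and 8.55 on day 5.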
